A study of Saccharomyces cerevisiae with 137 samples.

Results

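The HSP90 machinery of budding yeast was followed here through 7 genes: the chaperones HSP82 (YPL240C) and HSC82 (YMR186W), and the co-chaperones STI1 (YOR027W), AHA1 (YDR214W), HCH1 (YNL281W), CPR6 (YLR216C) and SBA1 (YKL117W). They were taken by name from the 6178 open reading frames of the deposited values table, and all 7 names matched the gene table by locus tag. The rule uses names and no measured value, though the set was put together with earlier results of these data known. Each of 137 arrays set RNA of a cooled or recovering sample, in one dye, against RNA of the same flask before the shift (t0), in the other. Flasks were moved from 30 to 13 °C, sampled after 15, 30 and 60 min (t15, t30, t60), returned to 30 °C, and sampled again 30 and 60 min later (t90, t120). The groups are wild type in YEPD (5 flasks, 23 arrays; flask 0 is BY4739, the others BY4741) and 6 BY4741 strains in YEPD with G418, each lacking 1 transcription factor gene: delCIN5, delHMO1 and delZAP1 (4 flasks and 20 arrays each), delGLN3 (5 flasks, 20 arrays), delHAP4 (4 flasks, 18 arrays) and delSWI4 (4 flasks, 16 arrays, none of them at t15). G418 therefore goes with every deletion and with no wild-type flask, and its part in a difference cannot be told apart from that of the deletion.

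Hsp90 is an abundant ATP-driven chaperone that finishes the folding of kinases, receptors and other clients. Yeast makes it from a pair of near-identical genes, HSC82, which is transcribed at a high level in unstressed cells, and HSP82, which heat induces strongly. Co-chaperones time its cycle: Sti1 bridges Hsp70 and Hsp90, Aha1 and its smaller relative Hch1 stimulate the ATPase, Cpr6 is a peptidyl-prolyl isomerase that docks on the tail of Hsp90, and Sba1, the yeast p23, holds the closed, ATP-bound form. The heat shock factor Hsf1 activates many of these genes, and its activity is in turn restrained by chaperones.

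A score is the authors' log ratio of shifted sample over t0, scaled on every array to a spread of about 1 (median absolute deviation 0.997 to 1.003), so that a score of −2 lies 2 such spreads below t0 and is not a fold. Shifted over t0 is the likely direction, from the titles alone. A score is about a share of the labelled RNA, and fewer cells with a transcript cannot be told apart from less of it per cell. HSP82 and HSC82 are so alike that a probe may take up RNA of both, and probe sequences were not used here. All 7 genes had values in at least 2 flasks of every group and entered every test; 3 values of HSC82 and 2 of HCH1 are missing. Means below come from a model across all open reading frames in limma, with the flask as a random block, and a gene is called at a Benjamini-Hochberg adjusted p below 0.05 over all of them. The smaller number of arrays at each time limits the precision, and some flasks were cultured in pairs on 1 day, so that p-values may overstate their independence. The 4 arrays delGLN3 t60 flask 2, delHAP4 t90 flask 4 and delHMO1 t60 and t90 flask 3 resembled the other phase in an earlier analysis of these data. Leaving out arrays picked in this way tends to move cold and recovery means apart, so calls gained without them are not independent support. In delHMO1 the direction is not settled, since over open reading frames its arrays of flasks 2 and 4 correlated below 0 at all 5 times (r = −0.49 at t15). Those of flasks 3 and 4 did so at t15 alone (r = −0.476, against 0.279 to 0.758 at the other 4 times). No deletion can be checked from ratios to the strain's own t0: the deleted genes had median scores of −0.256 to 0.178.

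In wild type, the transcripts of HSP82 and of 4 co-chaperones stood below t0 in the cold, and none of the 7 was called after rewarming. HSP82 was lower already at t15, with scores of −0.13, −2.39, −3.31 and −4.47 in flasks 1, 2, 3 and 4. All 4 lay below 0, over a wide range, with flask 1 closest to t0. The fitted mean was −2.54 ± 0.53 (SE, n = 4 flasks, adjusted p = 0.0023). At t30 HSP82 scored −0.97, −0.51, −2.19, −3.17 and −4.19 in flasks 0, 1, 2, 3 and 4, a mean of −2.21 ± 0.48 (n = 5, adjusted p = 0.0023). At t60 it scored −1.34, −1.48, −2.11 and −2.38 in flasks 0, 1, 2 and 3, a mean of −2.03 ± 0.53 (n = 4, adjusted p = 0.0088). The t60 call was lost in 1 fit of all strains (adjusted p = 0.075), without flask 2 (−1.99, adjusted p = 0.064) and without flask 3 (−1.93, adjusted p = 0.056). In recovery the flasks fell on both sides of t0: −1.72, 1.65, 0.33, −1.17 and −1.09 in flasks 0, 1, 2, 3 and 4 at t90, and −0.048, 0.71, 0.40, −2.0 and −1.80 at t120. Neither time was called (−0.40 ± 0.48 and −0.55 ± 0.48, adjusted p = 0.7 and 0.63).

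HSC82, the constitutive chaperone gene, lay closer to t0 in the cold and was not called at any single time. Its scores were 1.12, 0.14, −1.07, −1.69 and −3.24 in flasks 0, 1, 2, 3 and 4 at t30 and 0.17, −1.18, −1.36 and −2.02 in flasks 0, 1, 2 and 3 at t60, so that flask 0 stood above t0 at both times while flasks 2 to 4 stood below at each time measured. The mean over both times was −1.11 ± 0.42 (n = 5, adjusted p = 0.046), a call that was lost without flask 1, 2, 3 or 4 in turn (means of −1.23, −1.07, −0.90 and −0.74, adjusted p = 0.067, 0.14, 0.2 and 0.21). At t120, when HSP82 had flasks on both sides of 0, HSC82 was at −3.72, 0.057, −0.23, −2.0 and −3.14 in flasks 0, 1, 2, 3 and 4. Flasks 0, 3 and 4 were as low as in the cold or lower, and flasks 1 and 2 were near t0. The mean of −1.81 ± 0.51 (n = 5) missed the threshold (adjusted p = 0.052) and passed it with a dye term (0.0089). Without flask 0, HSC82 was also called lower at t30 and t60 (adjusted p = 0.036 and 0.026). The cold call was lost, too, without the replicate block (0.051), in 1 fit of all strains (0.064) and at t60 alone (0.12).

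STI1, the adaptor between Hsp70 and Hsp90, was below t0 in every wild-type flask at t60, at −1.52, −1.64, −2.38 and −2.37 in flasks 0, 1, 2 and 3. Its mean was −1.58 ± 0.53 at t30 (n = 5, adjusted p = 0.043) and −2.05 ± 0.58 at t60 (n = 4, adjusted p = 0.017). Both calls were lost without flask 2 (adjusted p = 0.21 at t30 and 0.085 at t60) and without flask 3 (0.14 and 0.089), the t30 call also without flask 4 (0.1) and in 1 fit of all strains (0.051). By t120 the flasks had spread over more than 5 units, at −3.11, 2.27, −0.11, −2.09 and −2.51 in flasks 0, 1, 2, 3 and 4.

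AHA1, the main activator of the Hsp90 ATPase, had the lowest mean of the 7 at t30 and t60. At t15 its 4 flasks lay close together, at −2.47, −2.21, −2.05 and −2.54 in flasks 1, 2, 3 and 4, with a mean of −2.32 ± 0.55 (adjusted p = 0.0058). It stayed there at t30 (−1.06, −2.02, −2.53, −2.43 and −4.26 in flasks 0, 1, 2, 3 and 4, mean −2.46 ± 0.49, n = 5, adjusted p = 0.0012) and at t60 (−2.08, −1.92, −3.14 and −2.71 in flasks 0, 1, 2 and 3, mean −2.59 ± 0.55, n = 4, adjusted p = 0.0016). None of these 3 calls was lost when any flask was left out. At t90 AHA1 scored −2.45, −0.48, −0.097, −1.07 and 0.24 in flasks 0, 1, 2, 3 and 4: flask 0 was as low as in the cold, and the other 4 were within about 1 unit of t0. HCH1, the relative of AHA1, was not called at t15 (−0.81 ± 0.45, adjusted p = 0.28), with 3 flasks below t0 and flask 1 above it at 0.56. At t30 HCH1 was called lower (−1.46 ± 0.41, n = 5, adjusted p = 0.016), a call lost without flask 2 (0.06) or flask 3 (0.12). At t60 HCH1 scored −1.03, −1.80, −2.04 and −2.47 in flasks 0, 1, 2 and 3, a mean of −1.87 ± 0.45 (adjusted p = 0.0053), which held without each flask.

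CPR6, the prolyl isomerase, scored −1.34, −1.12, −1.88, −2.57 and −2.46 in flasks 0, 1, 2, 3 and 4 at t30 and −1.89, −1.47, −2.09 and −2.99 in flasks 0, 1, 2 and 3 at t60. No flask overlapped t0 at either time. The t30 mean was −1.88 ± 0.40 (n = 5, adjusted p = 0.0021) and both calls held without each flask. SBA1 stood apart from the other 6. Its flasks lay on both sides of t0 at t30, at −1.33, −1.40, −0.26, −0.17 and 1.16 in flasks 0, 1, 2, 3 and 4, and at or below it at t60, at −1.67, −0.82, −0.035 and −0.32 in flasks 0, 1, 2 and 3, with a mean over both times of −0.46 ± 0.40 (adjusted p = 0.4). At t90 SBA1 was at 2.23, −0.23, 1.94, 0.0604 and 1.57 in flasks 0, 1, 2, 3 and 4, a mean of 1.11 ± 0.48 above t0 that did not pass (n = 5, adjusted p = 0.2). By t120 it was back at −0.57 ± 0.48, with flask 1 at −2.80.

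**Figure D1:**
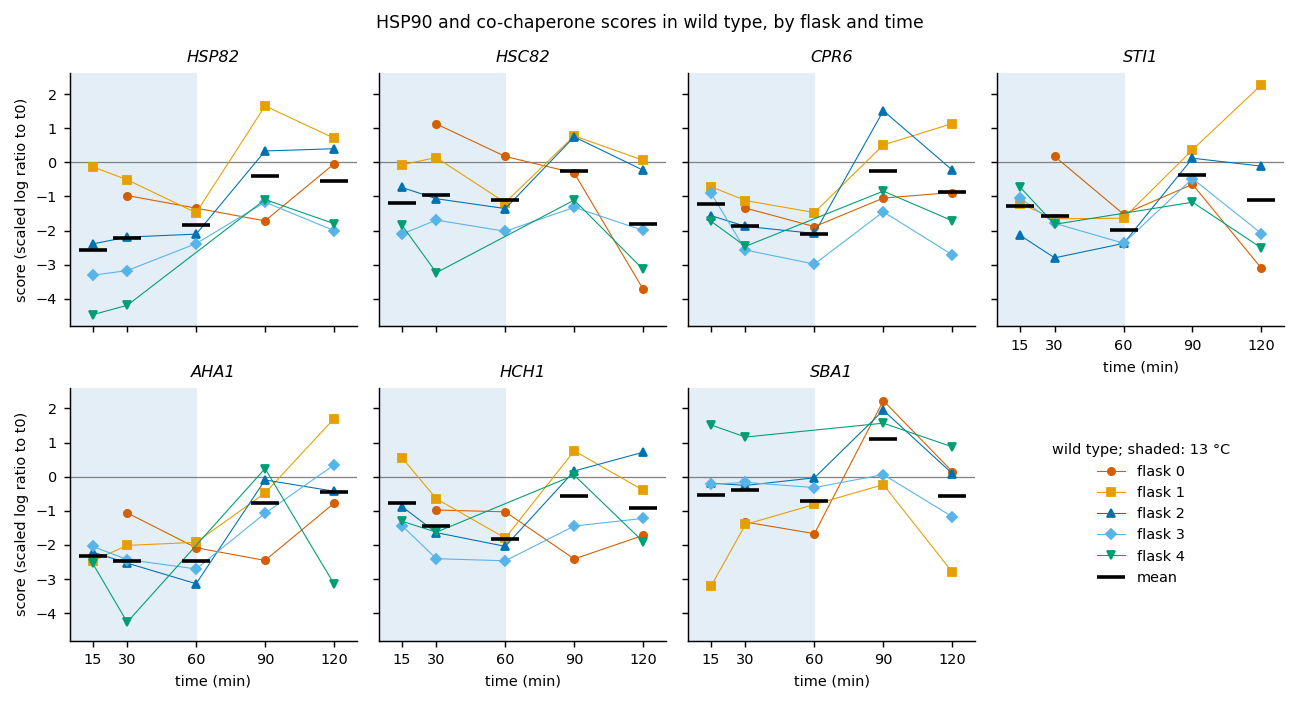
Scores of the 7 genes in the wild-type flasks by time in minutes (points joined within a flask; black bars are means over flasks; shading marks 13 °C). In the cold HSP82, AHA1 and CPR6 lie below 0 in every flask and SBA1 lies on both sides of it. In recovery all 7 genes have flasks on both sides of 0.

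Counted over time, 2 of the 7 genes were called lower in wild type at t15 (HSP82 and AHA1), against 3.18% of all open reading frames tested. At t30 and at t60 it was 5 of 7, namely HSP82, CPR6, STI1, AHA1 and HCH1, against 5.68% and 6.5% of all. None was called at t90 or t120, against 5.6% and 2.69% of all called in either direction (in limma 1 and 4 of the 7 had an unadjusted p below 0.05). The median over the 7 genes was −2.04 at t60, beside 0.063 over all open reading frames, and −0.36 at t90, beside 0.0093. From t15 to t60 no gene was called (0 of 7 in limma, also at an unadjusted p below 0.05; 0.292% of all called). From t60 to t90 CPR6 rose by 1.93 ± 0.53 (SE, n = 5 flasks, adjusted p = 0.0083) and AHA1 by 1.82 ± 0.65 (adjusted p = 0.041), 2 of 7 against 11.5% of all called higher. The CPR6 step was lost without flask 2 (1.5, adjusted p = 0.091), and the AHA1 step without flask 1, 2, 3 or 4 (adjusted p = 0.072, 0.25, 0.13 and 0.052) and without the replicate block (1.69, adjusted p = 0.1). Without flask 0, HSP82 and HCH1 also rose at this step (2.20, adjusted p = 0.027, and 2.06, adjusted p = 0.0085). SBA1 missed the threshold at 1.63 ± 0.63 (adjusted p = 0.06) and passed it without flask 1 (1.97, adjusted p = 0.025) or flask 4 (1.71, adjusted p = 0.048), as in 1 fit of all strains (0.03). From t90 to t120 no gene was called (0 of 7 in limma, 2 at an unadjusted p below 0.05; 0.939% of all called), with SBA1 at −1.68 ± 0.59 and HSC82 at −1.56 ± 0.63 (adjusted p = 0.24 and 0.34).

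Wild-type values differed between the chips. Flasks 0 and 1 were on GCAT chips and flasks 2 to 4 on Ontario chips, and in the cold 6 of the 7 genes were closer to t0 on GCAT chips, HSP82 for example at −1.08 against −2.71 and HSC82 at 0.062 against −1.85. SBA1 went the other way, at −1.30 on GCAT and 0.034 on Ontario chips. On Ontario chips alone, the 12 calls at single times all remained and HSC82 was also called at t30 (−2.0, adjusted p = 0.017), while the cold mean of SBA1 was 0.15 (adjusted p = 0.81). Chip and flask cannot be told apart, flask 0 being also of another background strain. Dye orientation went partly with the chip. All GCAT arrays and those of flask 2 had the shifted sample in Cy5, and flasks 3 and 4 had it in Cy3. In the cold, all strains pooled, the 6 genes other than SBA1 had means below 0 in both dye orientations, HSP82 for example at −2.04 with the shifted sample in Cy3 and −1.28 with it in Cy5. In recovery AHA1 was at −1.33 in Cy3 and −0.50 in Cy5, and HSC82 at −1.33 and −0.71. STI1 (−0.44 and −0.52) and HCH1 (−0.21 and −0.62) differed the other way.

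Across the 7 strains the cold phase was taken as the mean of t30 and t60. Of the 49 gene and strain pairs, 24 were called lower and none higher. AHA1 was lower in 6 of 7 strains, CPR6 and HCH1 in 5, HSP82 and STI1 in 3, HSC82 in 2 and SBA1 in none. By strain it was 6 of 7 genes in wild type and in delSWI4, 4 in delZAP1, 3 in delCIN5 and delHAP4, 2 in delGLN3 and none in delHMO1. The share of all open reading frames called lower in the same fits was 12.6% in wild type, 13.6% in delSWI4, 10.7% in delZAP1, 6.13% in delCIN5, 14% in delHAP4, 7.53% in delGLN3 and 0.165% in delHMO1. Of the 24 calls, 18 held when each flask of the strain was left out in turn. In 1 fit of all strains, with 1 shared spread, the calls of HSP82 and HCH1 in delCIN5 and of HSP82 in delSWI4 were lost (adjusted p = 0.13, 0.062 and 0.11). With t60 alone, those of HSP82 in delCIN5, CPR6 and AHA1 in delGLN3 and HCH1 in delHAP4 were lost (0.1, 0.31, 0.18 and 0.054). Counts differ between strains with the spread of their flasks and are not themselves a difference between strains; those differences are tested further on.

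AHA1 was below t0 in 30 of 30 flasks in the cold. At t60 it scored −4.43, −3.63, −2.22 and −3.63 in flasks 1, 2, 3 and 4 of delSWI4, −3.34, −3.63, −2.76 and −4.09 in flasks 2, 3, 4 and 5 of delZAP1 and −3.05, −3.29, −2.05 and −2.87 in flasks 1, 2, 3 and 4 of delCIN5. In delHAP4 it was at −1.34, −3.56, −3.61 and −2.85 in flasks 1, 2, 3 and 4, and in delHMO1 at −2.68, −3.28, −1.62 and −3.52 in flasks 1, 2, 3 and 4. The exception at t60 was flask 2 of delGLN3, one of the 4 arrays that resembled the other phase, at 0.45, while flasks 1, 3 and 4 were at −0.95, −3.10 and −2.29. Cold means of AHA1 ran from −1.66 ± 0.40 in delGLN3 (n = 5, adjusted p = 0.0072; 0.065 without flask 4) to −3.06 ± 0.38 in delZAP1 (n = 4, adjusted p = 1.8e-05).

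CPR6 was below t0 in 29 of 30 flasks, flask 3 of delCIN5 being the exception at a cold mean of 0.24. In delZAP1 it scored −2.11, −2.55, −5.44 and −1.81 in flasks 2, 3, 4 and 5 at t30, with flask 4 far below the other 3, and −2.09, −2.81, −2.79 and −1.71 at t60. The cold mean there was −2.66 ± 0.45 (n = 4, adjusted p = 0.00029), against −0.84 ± 0.45 in delCIN5 (adjusted p = 0.23). In delGLN3 CPR6 was at −1.55 ± 0.53 (n = 5, adjusted p = 0.047), a call lost without flask 3, 4 or 5 (adjusted p = 0.13, 0.17 and 0.11).

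HCH1 was also below t0 in 29 of 30 flasks, and its exception was large. Flask 2 of delGLN3 scored −0.56 at t15, 4.63 at t30, 2.83 at t60, 5.77 at t90 and 1.70 at t120, while the other flasks of that strain lay between −2.60 and 1.21 at all 5 times. The t60 array of this flask is one of the 4 that resembled the other phase; its t30 and t90 arrays are not. Without flask 2 the cold mean of HCH1 in delGLN3 was −1.42, adjusted p = 0.013, beside −0.061 ± 0.72 (adjusted p = 0.96) with it. The opposite extreme was flask 4 of delZAP1 at −7.00 at t30, beside −1.63, −2.23 and −1.91 in flasks 2, 3 and 5. In delSWI4 the flasks lay close together: at t60 HCH1 scored −2.13, −1.78, −1.81 and −2.35 in flasks 1, 2, 3 and 4, and the cold mean was −1.90 ± 0.28 (n = 4, adjusted p = 5.1e-05). In delCIN5 the cold mean of −1.30 ± 0.37 (adjusted p = 0.021) lost its call without flask 3 (0.17) or flask 4 (0.14).

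STI1 was below t0 in 27 of 30 flasks. It was lowest in delZAP1, at −1.60, −2.54, −2.44 and −2.62 in flasks 2, 3, 4 and 5 at t30 and −1.65, −2.45, −3.33 and −2.10 at t60, a mean of −2.34 ± 0.36 (n = 4, adjusted p = 0.00011), followed by delSWI4 at −2.23 ± 0.29 (n = 4, adjusted p = 1.1e-05). In delGLN3 at t30 STI1 was at 1.01, −0.11, −2.36 and 1.05 in flasks 1, 2, 4 and 5, with 2 flasks above t0, 1 near it and 1 below.

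HSP82 was below t0 in 29 of 30 flasks in the cold, and the 1 exception was flask 2 of delZAP1. That flask scored 0.53, 0.95, 1.60, 2.65 and 3.04 at t15, t30, t60, t90 and t120, while flasks 3, 4 and 5 of the strain lay between −0.98 and −4.49 at all 5 times. HSC82 went with it, at 0.52, 0.51, 1.08, 1.74 and 0.46 in the same flask. AHA1, CPR6, STI1 and HCH1 did not: on the t60 array of that flask they scored −3.34, −2.09, −1.65 and −1.95, within or near the range of the other 3 flasks. HSP82 in delZAP1 had a wide error in the cold (−1.40 ± 0.66, n = 4, adjusted p = 0.14) and in recovery (−1.46 ± 0.66, adjusted p = 0.24). Without flask 2 the cold mean was −2.30, adjusted p = 0.0014, and the recovery mean −2.89, adjusted p = 0.00054.

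HSP82 passed in wild type (−2.12 ± 0.39, n = 5, adjusted p = 0.00022), delCIN5 (−1.49 ± 0.49, n = 4, adjusted p = 0.043) and delSWI4 (−1.47 ± 0.48, n = 4, adjusted p = 0.025). The delCIN5 call was lost without flask 1, 2 or 4 (adjusted p = 0.1, 0.14 and 0.14) and the delSWI4 call without flask 2 or 4 (0.068 and 0.11). HSC82 was below t0 in 24 of 30 flasks. In delSWI4 it scored −1.29, −2.41, −0.57 and −2.28 in flasks 1, 2, 3 and 4 at t60, and its cold mean there was −1.54 ± 0.40 (n = 4, adjusted p = 0.006).

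In delHMO1 HSP82 and HSC82 had their lowest fitted cold means of the 7 strains, with HSP82 at −2.66 ± 0.68, HSC82 at −2.58 ± 0.63, AHA1 at −2.52 ± 0.66 and STI1 at −2.15 ± 0.63 (n = 4), yet none passed (adjusted p = 0.091, 0.072, 0.092 and 0.11; 6 of 7 had an unadjusted p below 0.05 in limma). HSP82 scored −4.45, −0.24, −4.55 and −2.71 in flasks 1, 2, 3 and 4 at t30: flasks 1, 3 and 4 were far below t0 and flask 2 near it. Without the t60 and t90 arrays of flask 3, the 6 genes other than SBA1 were all called lower in the cold, HSP82 for example at −2.91, adjusted p = 0.007. They were also called without the replicate block (HSP82 adjusted p = 0.01), with a dye term (adjusted p = 0.026) and in 1 fit of all strains (adjusted p = 0.0058). With the signs of flask 2 turned, the cold means of the 7 genes ran from −2.35 to −0.22 and none was called, the smallest adjusted p being 0.166. With those of flask 4 turned they ran from −1.25 to −0.26, again with none called (smallest adjusted p = 0.951).

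**Figure D2:**
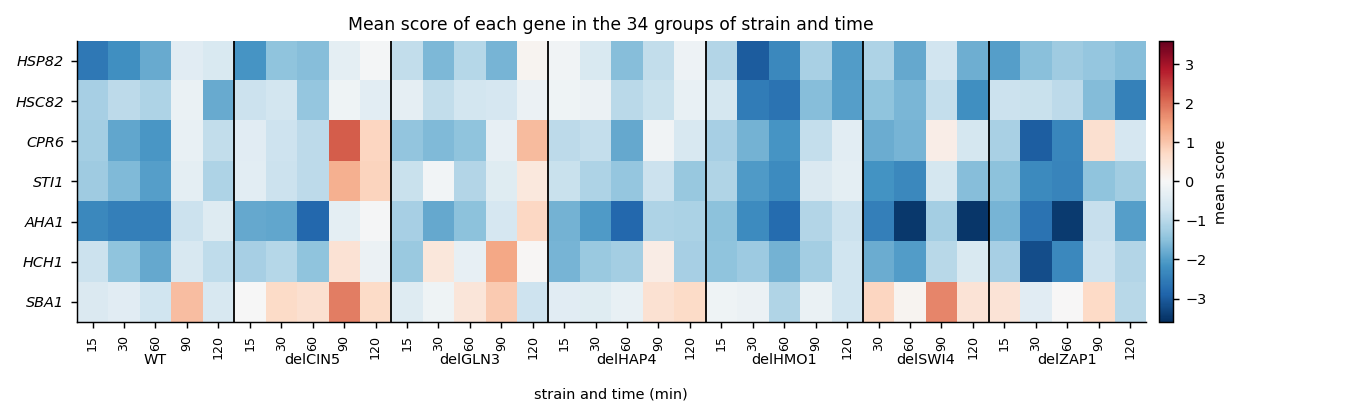
Mean score of each gene (rows) in each of the 34 groups of strain and time in minutes (columns), from blue below t0 to red above it. The 6 upper rows are mostly blue at 15, 30 and 60 min, AHA1 deepest, and SBA1 is pale in the cold and red at 90 min in 6 of 7 strains.

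SBA1 had no call in the cold in any strain. Its cold means ran from −0.64 ± 0.32 in delHMO1 to 0.64 ± 0.32 in delCIN5 (adjusted p = 0.3 and 0.2), and 16 of 30 flasks were below t0. On 47 of the 77 arrays at 13 °C with values for all 7 genes, SBA1 had the highest score of the 7, and on 62 it was above the mean of the other 6. All of the other 6 were below 0 together on 50 of these arrays.

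In recovery, the mean of t90 and t120, 7 of the 49 gene and strain pairs were called, in 3 strains. None of the 7 was called in wild type, delGLN3, delHAP4 or delHMO1 (2, 0, 0 and 3 at an unadjusted p below 0.05 in limma), where 6.14%, 3.9%, 2.25% and 0.033% of all open reading frames were called in either direction. That a mean was not called does not put it near t0. In delHMO1, HSC82 was at −1.76 ± 0.63, HSP82 at −1.59 ± 0.68 and HCH1 at −0.97 ± 0.40 (n = 4, adjusted p = 0.93 for each), and none was called with the signs of flask 2 or flask 4 turned. In wild type, HSC82 was at −1.03 ± 0.40 and HCH1 at −0.74 ± 0.33 (n = 5, adjusted p = 0.13 and 0.18), and HSC82 passed with a dye term (−1.19, adjusted p = 0.025). In delSWI4, HSC82, STI1 and AHA1 were still lower, 3 of 7 against 7.07% of all called lower and 14.7% called in either direction. AHA1 scored 0.17, −1.86, −1.08 and −2.16 in flasks 1, 2, 3 and 4 at t90 and −1.90, −6.55, −1.48 and −4.10 at t120, with flask 2 at t120 far below its own cold values and flask 4 level with them. Its mean was −2.37 ± 0.49 (n = 4, adjusted p = 0.0026), which held without each flask. HSC82 was at −0.084, −4.35, −1.30 and −3.12 in flasks 1, 2, 3 and 4 at t120 (recovery mean −1.54 ± 0.40, adjusted p = 0.012), a call lost without flask 2 (0.18) or flask 4 (0.12). STI1 was at −1.08 ± 0.29 (adjusted p = 0.015; 0.18 without flask 2 and 0.057 without flask 3). The slides of flask 1 were coated and those of flasks 2 to 4 were not. In recovery AHA1 was at −0.87, −4.2, −1.28 and −3.13 in flasks 1, 2, 3 and 4. HSC82 was at −0.029, −3.44, −0.35 and −2.32. For both genes uncoated flask 3 lay nearer to flask 1 than to flasks 2 and 4. Flasks 1 and 3 had the shifted sample in Cy5, and flasks 2 and 4 had it in Cy3. HSP82 was called in recovery without flask 1 (−1.86, adjusted p = 0.024) and with a dye term (−1.23, adjusted p = 0.016). The part of the coating was not tested, and dye orientation goes with the flask. The STI1 call was lost in 1 fit of all strains (0.2).

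The same 3 genes were lower in recovery in delZAP1, 3 of 7 against 2.6% of all called lower and 6.18% called in either direction. HSC82 scored 0.46, −5.01, −2.36 and −2.86 in flasks 2, 3, 4 and 5 at t120: flask 2 was just above t0 and the others far below. Its recovery mean was −2.0 ± 0.53 (n = 4, adjusted p = 0.025), that of STI1 −1.35 ± 0.36 (adjusted p = 0.027) and that of AHA1 −1.40 ± 0.38 (adjusted p = 0.032). Each of these calls was lost without some flasks: HSC82 without flask 3, 4 or 5 (adjusted p = 0.23, 0.13 and 0.23), STI1 without flask 3 or 4 (0.26 and 0.11), and AHA1 without flask 2, 4 or 5 (0.083, 0.12 and 0.3). Those of STI1 and AHA1 were lost in 1 fit of all strains (0.12 and 0.087), that of STI1 also at t120 alone (0.14).

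In delCIN5 1 gene, SBA1, was above t0 in recovery, against 2.38% of all called higher and 4.38% called in either direction. SBA1 scored 1.47, 1.11, 1.03 and 3.76 in flasks 1, 2, 3 and 4 at t90, all above t0 and flask 4 highest, and 0.94, 0.42, 0.56 and 0.80 at t120. The mean was 1.26 ± 0.32 (n = 4, adjusted p = 0.029), lost without flask 1, 3 or 4 (adjusted p = 0.065, 0.13 and 0.16), in 1 fit of all strains (0.051) and at t120 alone (0.5). CPR6 in the same strain scored 2.39, 2.20, 1.21 and 2.96 in flasks 1, 2, 3 and 4 at t90, the highest group mean of CPR6 in the series, but at t120 it was at −0.56, 0.48, 0.47 and 2.76, and the recovery mean of 1.49 ± 0.45 missed the threshold (adjusted p = 0.067). It passed without the replicate block (adjusted p = 0.014), with a dye term (0.042) and over open reading frames measured on every array (0.05). SBA1 was above t0 in recovery in delSWI4 too, at 0.98, 1.10, 1.70 and 0.68 in flasks 1, 2, 3 and 4. Its mean there of 1.11 ± 0.38 (n = 4) missed the threshold (adjusted p = 0.053). That mean passed without the replicate block (0.019), with a dye term (0.0286), over open reading frames measured on every array (0.0457) and with robust moderation (0.0485). In delGLN3 the recovery values of HSP82 held 1 extreme array: flask 3 scored −9.47 at t90, beside 1.78, 1.32 and −0.35 in flasks 1, 2 and 5. The other 6 genes scored between −2.37 and 1.21 on that array.

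Rewarming was taken as the fitted mean of t90 and t120 minus that of t30 and t60. Most flasks have both phases, so that their t0 sample largely drops out, but flasks that lack a time or a phase also enter the fit. Of 49 gene and strain pairs 16 were called higher and none lower. AHA1 rose in 5 strains, CPR6 in 4, STI1 and HCH1 in 3 each, HSP82 in 1 (wild type), and HSC82 and SBA1 in none. By strain it was 3 of 7 genes in wild type and in delSWI4, 4 in delCIN5 and in delZAP1, 1 in delGLN3 and in delHAP4, and none in delHMO1. The share of all open reading frames called higher was 18.2% in wild type, 21.4% in delSWI4, 13.3% in delCIN5, 16.7% in delZAP1, 8.86% in delGLN3, 14.5% in delHAP4 and 0.447% in delHMO1. Without delHMO1 flask 3, CPR6, STI1 and AHA1 were called higher in that strain (1.86, adjusted p = 0.013, 2.38, adjusted p = 0.0015, and 2.51, adjusted p = 0.0021). Without delHAP4 flask 4, CPR6, HCH1 and SBA1 were called higher in delHAP4 (adjusted p = 0.013, 0.022 and 0.016), and without wild-type flask 0, STI1 and HCH1 in wild type (0.01 and 0.0032). In delHMO1 no gene was called with the signs of flask 2 or flask 4 turned, and with those of flask 2 turned CPR6, AHA1, HCH1 and SBA1 had means below 0 (−0.53, −0.64, −0.34 and −0.32).

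CPR6 was higher in recovery than in the cold in 27 of 29 flasks, the exceptions being delHAP4 flask 4 and delHMO1 flask 3, whose t90 arrays are among the 4 that resembled the other phase. In delZAP1 CPR6 scored −2.09, −2.81, −2.79 and −1.71 in flasks 2, 3, 4 and 5 at t60 and −0.35, 0.96, −0.081 and 1.82 in flasks 2, 3, 4 and 5 at t90, with no overlap between the times. The rise there was 2.65 ± 0.48 (n = 4, adjusted p = 0.00022). In delCIN5 it was 2.33 ± 0.46 (n = 4, adjusted p = 0.00076) and in wild type 1.46 ± 0.36 (n = 5, adjusted p = 0.0023); these 3 calls held without each flask. In delSWI4 the rise of 1.53 ± 0.42 (adjusted p = 0.0061) was lost without flask 1 (0.94, adjusted p = 0.11), the flask on coated slides.

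AHA1 rose by 1.91 ± 0.45 in wild type (n = 5, adjusted p = 0.0013), 2.15 ± 0.41 in delCIN5 (n = 4, adjusted p = 0.0005) and 1.66 ± 0.41 in delZAP1 (n = 4, adjusted p = 0.0032; 0.054 without flask 3). In delGLN3 its rise of 1.71 lost the call without flask 1, 3, 4 or 5 (adjusted p = 0.073, 0.09, 0.085 and 0.081), and in delHAP4 its rise of 1.52 without flask 2 or 3 (0.33 and 0.22) or the replicate block (0.11). In delSWI4 the difference for AHA1 was 0.60 ± 0.51 (n = 4, adjusted p = 0.37). HSP82 rose by 1.65 ± 0.43 in wild type (n = 5, adjusted p = 0.0036; 0.052 without flask 2). In delCIN5 HSP82 missed the threshold at 1.29 ± 0.49 (adjusted p = 0.057) and passed without flask 1 or 3 (0.04 and 0.037) and over open reading frames measured on every array (0.044). In delHMO1 it passed without the t60 and t90 arrays of flask 3 (1.73, adjusted p = 0.031). HSC82 had fitted changes between −1.12 in delZAP1 and 0.82 in delHMO1, and was higher in recovery than in the cold in 15 of 29 flasks. In delZAP1 without flask 2 it was lower in recovery than in the cold (−1.60, adjusted p = 0.018), and in delCIN5 without flask 1 it was higher (1.23, adjusted p = 0.034).

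STI1 rose by 1.90 ± 0.48 in delCIN5 (n = 4, adjusted p = 0.0057) and 1.15 ± 0.30 in delSWI4 (adjusted p = 0.0042), both held without each flask, and by 0.99 ± 0.38 in delZAP1 (adjusted p = 0.048), lost without flask 2, 3 or 5 (0.1, 0.096 and 0.29) and without the replicate block (0.12). HCH1 rose by 1.12 ± 0.29 in delSWI4 (n = 4, adjusted p = 0.0044), which held without each flask. In 1 fit of all strains these delSWI4 calls of STI1 and HCH1 and the delZAP1 call of STI1 were lost (adjusted p = 0.084, 0.063 and 0.15). HCH1 rose by 1.44 ± 0.37 in delCIN5 (adjusted p = 0.0066; 0.05 without flask 2 and 0.061 without flask 3) and by 1.86 ± 0.59 in delZAP1 (adjusted p = 0.019; 0.058 without flask 2 and 0.079 without flask 3, 0.051 without the replicate block).

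**Figure D3:**
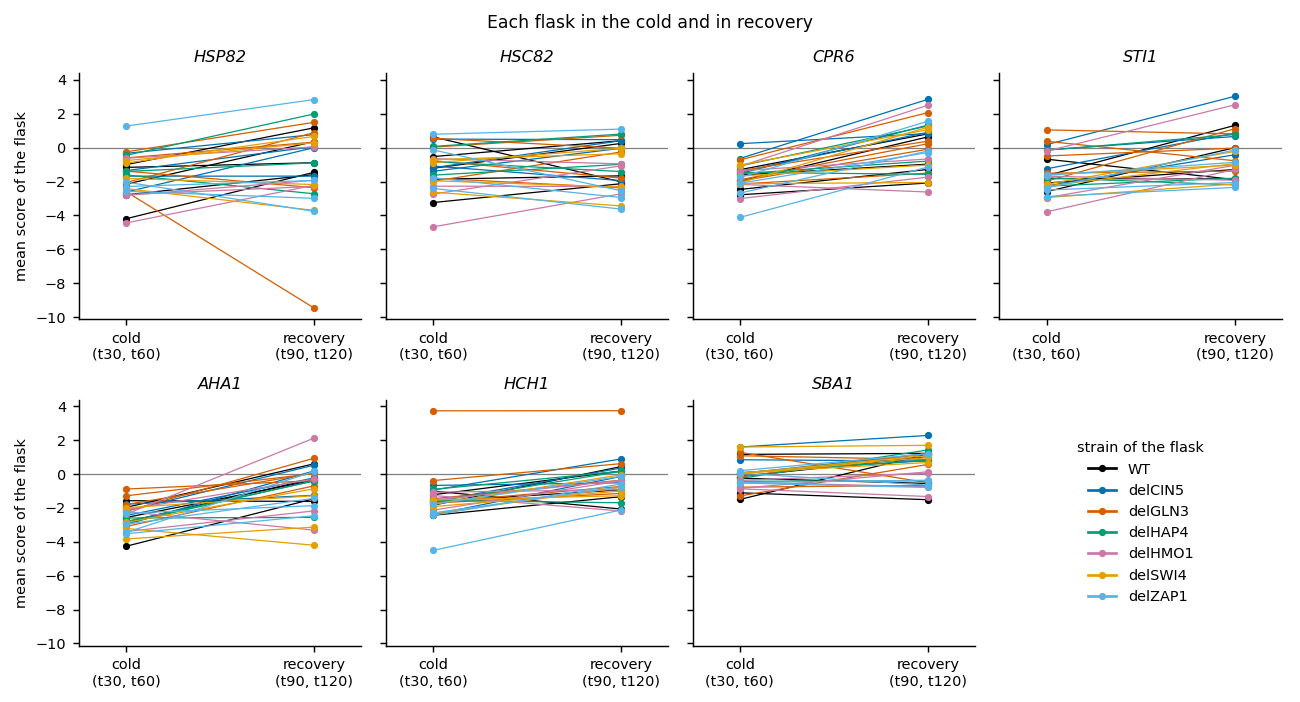
Mean score of each flask in the cold (t30 and t60) and in recovery (t90 and t120), joined and coloured by strain, for the 29 flasks with both phases. CPR6 is higher in recovery in 27, AHA1 and HCH1 in 26, STI1 in 23, HSP82 in 22, SBA1 in 20 and HSC82 in 15 of them, and the isolated HSP82 line that drops to −9.47 is delGLN3 flask 3.

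Over the unweighted mean of all strains, which rests on the most arrays, 6 genes were called lower at t30 and t60 and 3 or 4 of them were still lower in recovery. At t15, 5 genes were lower (HSP82, CPR6, STI1, AHA1 and HCH1) against 23% of all open reading frames, and at t30 and t60 all but SBA1, against 26.8% and 26%. AHA1 went from −1.70 ± 0.26 at t15 to −2.24 ± 0.23 at t30 and −2.77 ± 0.24 at t60 (adjusted p = 1.8e-08, 1.5e-14 and 1.5e-18; n = 24, 29 and 28 arrays). HSC82 was at −0.57 ± 0.26 at t15 (adjusted p = 0.063) and lower at t60 (−1.32 ± 0.24, adjusted p = 1.8e-06). At t90, HSP82, HSC82 and AHA1 were lower, 3 of 7 against 12.3% of all, and SBA1 higher, 1 of 7 against 12.7%. SBA1 stood at 0.97 ± 0.19 (adjusted p = 3.3e-05; 21 of 28 arrays above 0, and 6 of 7 strain means), and this call held without each flask and with the delHMO1 signs turned. At t120 SBA1 was back at −0.17 ± 0.19 (adjusted p = 0.58), and HSP82, HSC82, AHA1 and HCH1 were lower, 4 of 7 against 10.7%. HSC82 had the lowest mean of the 7 there, −1.35 ± 0.24 (adjusted p = 7e-06), and all 7 strain means of HSC82 were below 0 at t120.

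Some of these recovery calls were fragile. HSP82 at t90 (−0.92 ± 0.32, adjusted p = 0.023) was −0.56, adjusted p = 0.14 without delGLN3 flask 3, and it also lost its call without delCIN5 flask 1, delHAP4 flask 2 or 4, delHMO1 flask 3 or delZAP1 flask 3 (0.051, 0.056, 0.059, 0.057 and 0.054). HSP82 at t120 (−0.91 ± 0.32, adjusted p = 0.027) lost its call without delGLN3 flask 4, delHAP4 flask 4, delHMO1 flask 1, delSWI4 flask 2 or 4, or delZAP1 flask 3 or 4 (0.062, 0.12, 0.064, 0.083, 0.052, 0.055 and 0.076), and without the replicate block (0.062). Both HSP82 calls were lost with the signs of delHMO1 flask 4 turned (0.089 at t90 and 0.08 at t120), the t120 call also with those of flask 2 turned (0.055) or without delHMO1 (0.11), and the t90 call without the 4 arrays (0.088). HCH1 at t120 (−0.67 ± 0.22) lost it without delHAP4 flask 4 (−0.60, adjusted p = 0.052). AHA1 at t90 (−0.82 ± 0.24, adjusted p = 0.0058) lost it without the 4 arrays that resembled the other phase (−0.55, adjusted p = 0.068) and with the signs of delHMO1 flask 4 turned (−0.65, adjusted p = 0.058). HSC82 held at both times without each flask.

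Whether any deletion changed the response was asked by setting each strain against wild type in the same fit. Of 84 such differences (7 genes, 6 strains, cold and recovery) none was called in limma; 5 had an unadjusted p below 0.05, and the smallest adjusted p was 0.208. The 6 strains share the wild-type arrays. Of the 23 wild-type arrays 9 were on GCAT chips, and all deletion arrays were on Ontario chips. All 18 delHAP4 arrays and 12 of the 16 delSWI4 arrays were on uncoated slides, and no wild-type array was. In delHAP4 the part of the coating cannot be told apart from that of the deletion. In the cold, the share of all open reading frames called different was 0% for delCIN5, 0.348% for delGLN3, 0.201% for delHAP4, 0.0496% for delHMO1, 0.148% for delSWI4 and 0.0818% for delZAP1. In recovery it was 0.0649%, 0.848%, 0.0342%, 0.099%, 1.21% and 0.296% in the same order. The 5 differences concerned CPR6 in delCIN5 in the cold (1.2 ± 0.56) and in recovery (2.06 ± 0.55, 95% interval 0.94 to 3.18, adjusted p = 0.21), STI1 in delCIN5 in recovery (1.77 ± 0.67), AHA1 in delSWI4 in recovery (−1.75 ± 0.65, 95% interval −3.07 to −0.44, adjusted p = 0.22) and HCH1 in delGLN3 in the cold (1.54 ± 0.75). CPR6 in delCIN5 in recovery was called without the replicate block (adjusted p = 0.043), AHA1 in delSWI4 in recovery with the flask number as a block (adjusted p = 0.047), and HSP82 in delZAP1 in recovery without delZAP1 flask 2 (−2.42, adjusted p = 0.049). With the signs of delHMO1 flask 2 or 4 turned, no delHMO1 difference was called, the smallest adjusted p being 0.227. Intervals were wide. For AHA1 in the cold, where all strains were low, that of delCIN5 ran from −1.03 to 1.41 and that of delZAP1 from −1.73 to 0.67, and that of HSP82 in delGLN3 from −1.28 to 2.63, so that differences of 1 to 2 units remain possible.

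**Figure D4:**
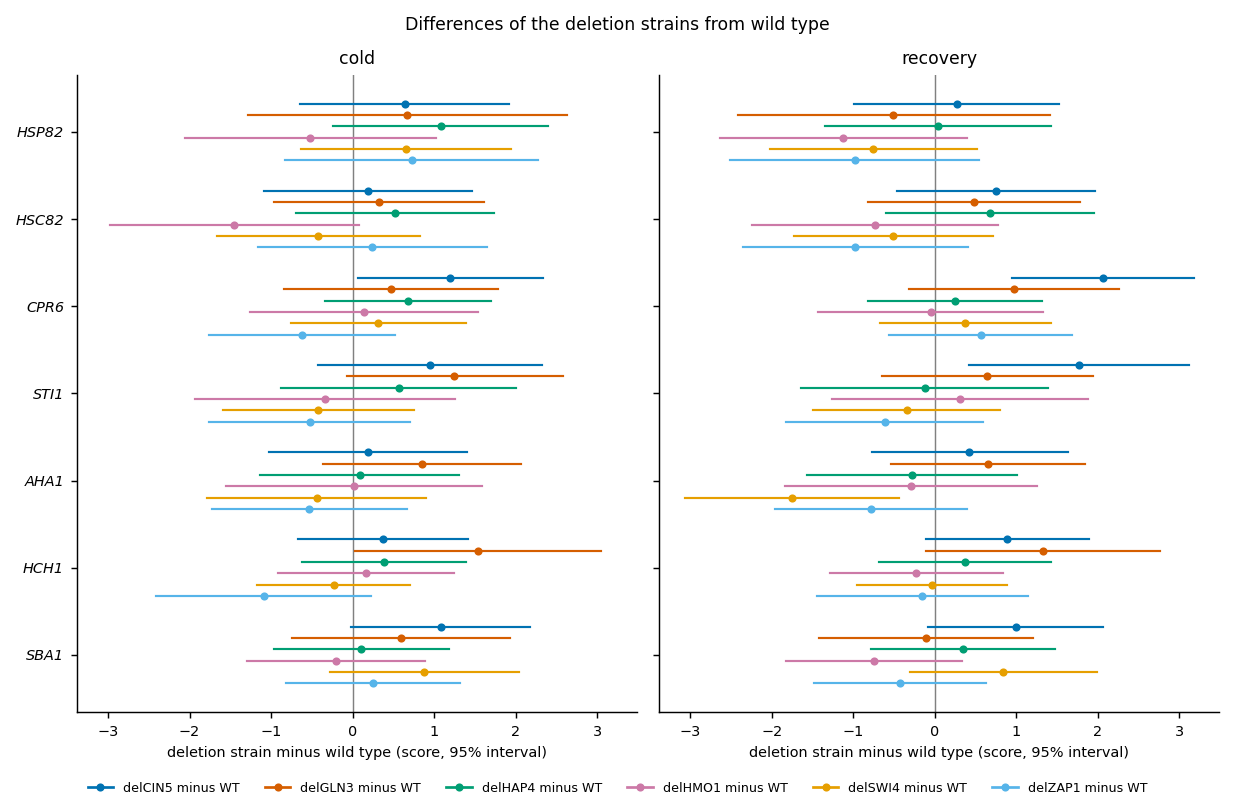
Score of each deletion strain minus wild type, in the cold and in recovery, with 95% intervals not adjusted for the number of tests. Most intervals include 0, and among those that do not are CPR6 and STI1 of delCIN5 above 0 and AHA1 of delSWI4 below 0 in recovery.

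A test for any difference among the 7 strains called none of the 7 genes in the cold, in recovery or on rewarming (0 of 21 in limma; 1, 3 and 0 genes had an unadjusted p below 0.05), against 0.705%, 2.69% and 10.7% of all open reading frames. The smallest adjusted p were those of AHA1, SBA1 and STI1 in recovery (F = 2.54, 2.39 and 2.29, adjusted p = 0.24, 0.28 and 0.31), and in the cold that of HCH1 (F = 2.65, adjusted p = 0.38). AHA1 in recovery was called without the replicate block (adjusted p = 0.036). With the signs of delHMO1 flask 2 turned, CPR6 in recovery and on rewarming and AHA1 on rewarming were called (adjusted p = 0.018, 0.017 and 0.04), and without that flask CPR6 in recovery came just under the threshold (F = 3.56, adjusted p = 0.05).

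Set in order by the mean over the 30 flasks in the cold, AHA1 stood lowest at −2.53, then CPR6 at −1.74, HSP82 at −1.68, STI1 at −1.56, HCH1 at −1.5, HSC82 at −1.19 and SBA1 at −0.073. Scores of different genes come from different probes, and the order is one of scaled ratios to t0, not of transcript levels. Neighbours differed by less than the SD of their paired difference over flasks: CPR6 was above AHA1 by 0.79 ± 0.88 (SD, n = 30 flasks, 26 of 30 above 0), SBA1 above HSC82 by 1.11 ± 1.65 (22 of 30), and the steps between them were 0.055 to 0.31. On the 54 cold arrays with all 7 values AHA1 was the lowest of the 7 on 32 and SBA1 the highest on 36. In recovery AHA1 was lowest on 18 and SBA1 highest on 24 of 55 arrays.

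Over the 34 means of strain and time, likeness among the members varied. CPR6 and STI1 had r = 0.815, STI1 and AHA1 0.770, CPR6 and AHA1 0.747 and STI1 and HCH1 0.724, while HSP82 and HSC82 had 0.644, AHA1 and HCH1 0.625, HSP82 and AHA1 0.593 and HSP82 and HCH1 0.220. SBA1 had 0.512 with CPR6 and 0.227 with AHA1. These means share flasks, t0 samples and arrays, and the coefficients are descriptions. Coefficients of this size were not particular to members. By likeness to CPR6 among 5922 genes, STI1 had rank 20, AHA1 rank 136 and HCH1 rank 303. By likeness to STI1, CPR6 had rank 2, AHA1 rank 4 and HCH1 rank 10. Among 5916 other genes, those most like the mean of the 7 were HSP60 (r = 0.865), the chaperonin of mitochondria, GOS1 (0.841), a Golgi SNARE, NIF3 (0.838), LAT1 (0.832), a subunit of mitochondrial pyruvate dehydrogenase, YLR217W (0.809) and ORM1 (0.799), a regulator of sphingolipid synthesis. YLR217W has no entry in the gene table. Its systematic number follows that of CPR6 on the other strand, and whether both overlap was not examined. Ranked by likeness to single members, HSC82 was nearest to SSA1 (0.713), a cytosolic Hsp70 gene, with HSP82 next. STI1 was nearest to HSP60 (0.845) with CPR6 next, and CPR6 itself to GOS1 (0.876). AHA1 was nearest to DSE3 (0.846), HCH1 to YPT7 (0.760), HSP82 to SEH1 (0.658) and SBA1 to KTR1 (0.739).

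Other Hsp90 co-chaperones did not share one direction. Of 7 in wild type in the cold (mean of t30 and t60), 2 were lower, against 12.6% of all, and 2 higher, against 16.6% of all. CDC37, the kinase-specific co-chaperone, was at −1.08 ± 0.32 (n = 5, adjusted p = 0.012) and CPR7, the paralog of CPR6, at −0.98 ± 0.29 (adjusted p = 0.013). CNS1, an essential tetratricopeptide co-chaperone, was at 1.22 ± 0.26 (adjusted p = 0.00087) and PIH1, which with Tah1 links Hsp90 to assembly of box C/D particles, at 0.80 ± 0.22 (adjusted p = 0.0083). PPT1, the phosphatase that acts on Hsp90, SGT1 and TAH1 did not pass (−0.24, −0.49 and 0.51). The median over these 7 genes was −0.24, beside −1.81 over the 7 members and 0.042 over all open reading frames. On rewarming CNS1 fell by 2.27 ± 0.29 (adjusted p = 1.3e-06) and PPT1 by 1.30 ± 0.30 (adjusted p = 0.0014), 2 of 7 against 19.2% of all called lower, and none of the 7 rose. Over the mean of all strains at t60, PPT1, CNS1, TAH1 and PIH1 were higher, 4 of 7 against 28.5% of all. CPR7 and SGT1 were lower, 2 of 7 against 26% of all, which is near that share. CNS1 stood at 1.40 ± 0.19 at t60 and −1.68 ± 0.19 at t90 (adjusted p = 4.9e-10 and 4.7e-12). CPR7 was the one co-chaperone on either list that differed among strains in recovery (F = 5.71, adjusted p = 0.0048), against 2.69% of all called. In recovery CPR7 was not called in any single deletion strain against wild type.

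In wild type most of the other chaperone genes known as Hsf1 targets went lower with the 6 members. This list was chosen with earlier results of these data known. In wild type in the cold 9 of 13 were lower, against 12.6% of all, and none higher, with a median of −1.68. On rewarming 10 of 13 rose, against 18.2% of all, with a median of 1.85. The 4 with the smallest adjusted p at t60 were HSP78, a mitochondrial disaggregase (−3.09 ± 0.50), HSP60 (−1.87 ± 0.35), SIS1, an essential Hsp40 (−2.28 ± 0.47), and HSP104, the cytosolic disaggregase (−2.35 ± 0.58; adjusted p = 0.00024, 0.00056, 0.0014 and 0.0065). On rewarming SIS1 rose by 2.75 ± 0.39 and HSP42, a small heat shock protein, by 4.60 ± 0.76 (adjusted p = 3.5e-06 and 3.3e-05), beside 1.91 for AHA1, the member that rose most. The wild-type HSP42 scores at t120 were widely spread, from −1.01 to 8.73 (SD 4.08, n = 5 flasks). Over the mean of all strains at t90, 2 of 12 were higher, HSP42 (2.06 ± 0.42, adjusted p = 4.4e-05) and HSP104 (1.02 ± 0.29, adjusted p = 0.0041), against 12.7% of all. 1 was lower, the Hsp40 gene YDJ1 (−0.87 ± 0.18, adjusted p = 5.7e-05, named after its value was seen), against 12.3%, and 9 were not called. The median of the 12 was 0.08, against 0.01 over all. Strain by strain in the cold, 9 of 13 were lower in delHAP4 and in delSWI4, against 14% and 13.6% of all. It was 7 of 13 in delZAP1 (10.7% of all) and 5 of 13 in delGLN3 (7.53%). In delCIN5 and in delHMO1 it was 1 of 12 (6.13% and 0.165%). HSF1 itself, the gene of the factor, was at −0.95 ± 0.37 in wild type in the cold (adjusted p = 0.052), and it rose on rewarming by 1.06 ± 0.40 (adjusted p = 0.04).

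**Figure D5:**
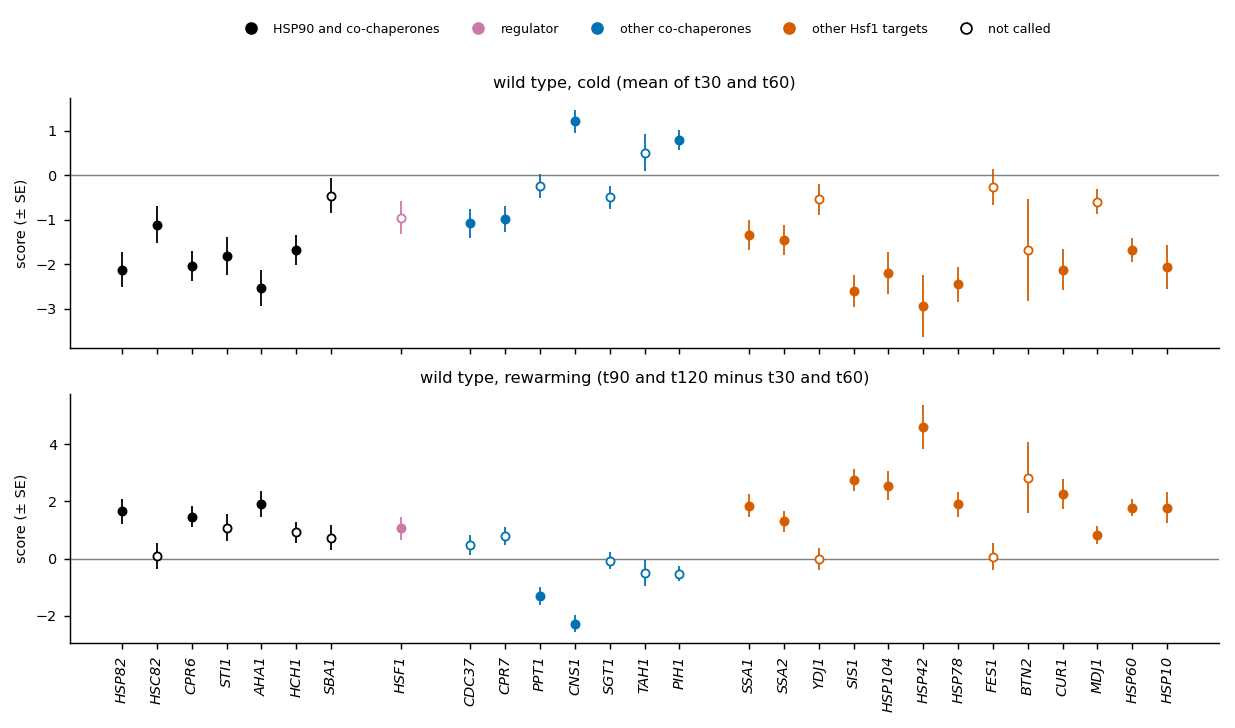
Wild-type means (± SE) in the cold and on rewarming for the 7 genes, HSF1, the other co-chaperones and the other Hsf1 targets, with open circles for genes not called. Except for SBA1 the members lie with the Hsf1 targets below 0 in the cold, and the other co-chaperones lie on both sides of 0.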

How the data were processed

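RNA of 137 samples was compared by the authors, each with its flask's t0 RNA, on 2-colour arrays after amplification, per the labels' protocols. The deposited values are scores: log ratios that the authors scaled on every array to a common spread, with medians of −0.051 to 0.085. limma is named in the submitters' processing notes, and its version, the log base, background correction and spot filters are not given in the sources used here. The depth behind an array score is not known. From 5041 to 6158 open reading frames were measured per array, and 3.95% of values are missing. All columns were matched to samples by the labels.

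Generalised least squares over all open reading frames, with 1 mean per strain and time and the flask as a random block (consensus correlation 0.11 to 0.4 by strain), was moderated in limma 3.58.1 (R 4.3.3) and adjusted by Benjamini-Hochberg over all open reading frames with at least 2 flasks per group. The block follows the labels, which give 1 flask number to all times of a culture. Figures and counts used Python 3.11.15. The procedure was run on data with known changes, simulated from its own model with the flask correlation given. Such data hold no odd arrays and no chip or dye effects, so the run could not test for these. Alternatives were 1 fit of all strains, no block, the flask number as a block, a dye term, centred arrays, complete rows, robust moderation, a threshold of 0.01, Ontario chips only, single times, leaving out 4 odd arrays, delHMO1 or each flask, and turned delHMO1 signs.

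The 7 genes and the lists (7 other co-chaperones, 14 other Hsf1 targets, 13 of them in the table) were chosen with earlier results of these data known. Named besides these were HSF1, the 4 Hsf1 targets with the smallest adjusted p in wild type at t60 and on rewarming, the 6 genes most correlated with the mean of the 7, and the nearest genes of each member. SSA1 falls under this last part. Sequences of probes, promoters and proteins were not used here.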

Additional observations from a re-analysis of the deposited data

Results flagged for a closer look

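In 15 of 219 groups of 4 or 5 flasks, 1 flask lay far from the others by Dixon's criterion at the 95% level. Chance alone gives about 1 in 20, or 10.9 groups.

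In delZAP1, flask 2 stood above the other 3 for both chaperone genes. HSP82 scored 0.95 at t30 beside −2.63 to −2.10, and 1.60 at t60 beside −2.51 to −1.95. HSC82 scored 1.74 at t90 beside −3.02 to −2.24. For HCH1 in delZAP1, flask 5 scored 0.79 at t15 beside −2.10 to −1.62, and flask 4 scored −7.00 at t30 beside −2.23 to −1.63.

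In delHAP4, HSP82 of flask 1 scored −0.46 at t60 beside −1.96 to −1.74. HCH1 of flask 1 scored −0.44 at t30 beside −1.75 to −1.57, and HCH1 of flask 3 scored −0.24 at t60 beside −1.61 to −1.53. In delGLN3, STI1 of flask 2 scored 0.87 at t60 beside −1.99 to −1.50, on an array that looked like recovery in an earlier analysis. SBA1 of the same flask scored 1.98 at t30 beside −1.07 to −0.73.

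In delHMO1, HSC82 of flask 2 scored 0.73 at t15 beside −1.26 to −0.95. SBA1 of flask 4 scored −0.68 at t15, with the other 3 within 0.05 of t0, and SBA1 of flask 3 scored −0.89 at t90 beside −0.04 to 0.01. In delCIN5, SBA1 of flask 4 scored 3.76 at t90 beside 1.03 to 1.47, all 4 above t0. In delSWI4, SBA1 of flask 3 scored 3.09 at t30 beside −0.23 to 0.29.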

How the results depend on the processing

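No called result reversed its sign under any alternative that could be run. Of the results for single genes, 6400 kept their direction and their side of the threshold, 119 came to pass it and 130 no longer passed it. Counts of calls in the cold, on rewarming upward and over the mean of all strains stayed within 1.5 times of the reported ones under every setting applied to the whole series; the exceptions lay in recovery, wild-type steps and differences between strains, and their cause was not tested.

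The 6 lower calls in recovery became 3 in 1 fit of all strains and 1 at an adjusted p below 0.01. The 1 higher call in recovery became 0 in 1 fit of all strains, 0 at an adjusted p below 0.01 and 0 at t120 alone, and it became 3 with no replicate block, 3 with a dye term, 3 over open reading frames measured on every array and 2 with robust moderation. The 2 rises between wild-type times became 1 with no replicate block and 1 at an adjusted p below 0.01. Of the deletion minus wild type differences in recovery, 1 was called higher with no replicate block, and 1 lower with the flask number as a replicate block, although that number marks nothing shared between strains. The test among strains made 1 call with no replicate block and 3 calls, on CPR6 and AHA1, with the signs of delHMO1 flask 2 turned.

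Leaving out each flask in turn gave 8 to 14 lower calls in wild type by time, 0 to 4 rises between wild-type times, 22 to 26 lower calls in the cold, 3 to 7 lower and 0 to 1 higher calls in recovery, 13 to 19 higher and 0 to 1 lower calls on rewarming, 21 to 26 lower calls over the mean of all strains, 0 to 1 lower differences from wild type in recovery, and 0 to 1 calls among strains. Signal over background was not used here, and with 3 to 5 flasks per group, differences between strains as large as 2.06 (CPR6 in delCIN5 in recovery) went without a call.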
